A study of Mus musculus with 4 samples.

Results

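The common gamma chain cytokine receptors are the receptors that share, or share subunits with receptors that contain, the chain encoded by Il2rg. Their 9 genes, Il2ra, Il2rb, Il2rg, Il7r, Il4ra, Il13ra1, Il21r, Il15ra and Il9r, were chosen by symbol, and all 9 were found among the 31053 genes of the deposited count matrices. The matrices hold immune cells from the lungs of C57BL/6 mice, male and 5 to 10 weeks old by the study's methods, in 4 groups of 1 single-cell library each. WT mice carried the floxed allele Ift20 f/f and no Cre. KO mice carried Ift20 f/f and CD4 cre, in which the CD4 promoter makes Cre in developing T cells, so that CD8 as well as CD4 T cells lose the gene. IFT20 is an intraflagellar transport protein, and the study asked what its loss in T cells does in allergic airway inflammation. Papain WT and Papain KO mice received 25 µg of the protease allergen papain through the nose on 3 days in a row and a challenge on day 14, while DPBS WT and DPBS KO mice received buffered saline. Cells were taken on day 15, and live cells positive for CD45.2, the pan-leukocyte antigen, were sorted for 3′ libraries. The labels do not say how many mice went into a library.

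Each receptor of the family joins the common chain to a chain of its own. IL-2Rα (Il2ra) raises the affinity for IL-2, and IL-2Rβ (Il2rb) signals together with the common chain for both IL-2 and IL-15, with IL-15Rα (Il15ra) presenting IL-15. IL-7Rα (Il7r), IL-21R (Il21r) and IL-9R (Il9r) each pair with the common chain for 1 cytokine, and IL-7Rα also pairs with the chain encoded by Crlf2 in the receptor for TSLP, an epithelial alarmin. IL-4Rα (Il4ra) pairs with the common chain in lymphocytes or with IL-13Rα1 (Il13ra1) in myeloid and structural cells, and only the second form binds IL-13. JAK1 sits on the private chains and JAK3 on the common chain, and STAT5 or STAT6 carries most of the signal. In lung these receptors are known for the survival of naive T cells, the upkeep of regulatory T cells and type 2 innate lymphoid cells (ILC2), and the type 2 polarisation of macrophages.

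Several of these genes are neighbours on the chromosome. On GRCm38 with GENCODE M21, Il2ra occupies positions 11642807 to 11693193 of chromosome 2, plus strand, and Il15ra starts 12096 bp downstream and runs from 11705290 to 11734317. Il4ra lies on chromosome 7 from 125552120 to 125579474, and Il21r follows it on the same strand after 23954 bp, from 125603429 to 125633570. Il7r (9505788 to 9530176) and Il2rb (78479256 to 78495271) share chromosome 15, both on the minus strand. Il2rg (101264378 to 101268255, minus strand) and Il13ra1 (36112110 to 36171259, plus strand) are on chromosome X, and Il9r is on chromosome 11 from 32187541 to 32200279 on the minus strand.

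Promoter sequences are shown for 3 members, the common chain and the chains of IL-2 and IL-21, which the results in regulatory T cells below turn on. They are the 250 bases upstream of the RefSeq start on GRCm38.p6, 5′ to 3′ on the gene's strand, at chr2:11642542-11642791 (plus strand) for Il2ra, chr7:125603179-125603428 (plus strand) for Il21r and chrX:101268256-101268505 (minus strand) for Il2rg. Capitals mark a match to a searched motif.
Il2ra: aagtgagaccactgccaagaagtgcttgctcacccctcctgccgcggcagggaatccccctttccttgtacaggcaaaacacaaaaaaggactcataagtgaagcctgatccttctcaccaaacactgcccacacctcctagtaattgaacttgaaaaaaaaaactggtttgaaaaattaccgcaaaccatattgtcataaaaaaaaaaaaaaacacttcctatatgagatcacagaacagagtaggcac
Il21r: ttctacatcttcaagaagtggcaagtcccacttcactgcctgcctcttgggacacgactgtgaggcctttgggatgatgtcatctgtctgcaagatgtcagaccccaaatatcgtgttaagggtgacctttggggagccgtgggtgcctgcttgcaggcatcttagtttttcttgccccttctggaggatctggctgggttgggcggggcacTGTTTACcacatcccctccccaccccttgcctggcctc
Il2rg: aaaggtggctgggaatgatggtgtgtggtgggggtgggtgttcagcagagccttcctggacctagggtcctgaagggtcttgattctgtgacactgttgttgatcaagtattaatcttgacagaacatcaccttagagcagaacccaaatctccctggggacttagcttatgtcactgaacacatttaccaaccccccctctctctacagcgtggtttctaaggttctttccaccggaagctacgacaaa

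Searched on both strands were the STAT motif TTCNNNGAA, the STAT6 form of it with 4 free bases, the AP-1 motif TGANTCA and the forkhead motif GTAAACA. Of 32851 upstream windows of the same length, 7.02%, 5.85%, 6.75% and 3.17% held them. The Il21r window held GTAAACA on the reverse strand, 38 bases upstream of the start, and the Il2ra and Il2rg windows held none of the 4. Among the members whose windows are not printed, Il7r had TTCNNNGAA 142 bases upstream and 1 of the Il15ra windows had TGANTCA 30 bases upstream. Il2rb was not among the windows. A match describes letters in these windows and not a site in use.

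After filtering, 7587 WT and 5433 KO cells were kept after DPBS and 7454 WT and 5435 KO cells after papain, at median depths of 5852 to 6686 unique molecular identifiers (UMIs) per cell. Pairs of libraries shared 5 to 13 barcodes. Cells were clustered with the receptor genes left out and named from markers, so the ending -like applies to every class name, and 18 classes were compared. Where T cell clusters had no marker name of their own they are called by a leading gene. Lef1-led CD4 and CD8 T-like cells are led by a gene of naive T cells, and Ccl5-led ones by a chemokine gene of effector and memory T cells. Levels are CPM, a gene's part in 1000000 of all UMIs that a class had in a library, with 95% exact Poisson intervals that cover counting error only. Since every group is a single library, groups were not tested against each other, no difference has a replicate check, and ratios below are values of these libraries. Ift20, checked first, was at 52.8, 23.0, 47.2 and 16.7 CPM in Lef1-led CD4 T-like cells, given as WT then KO for DPBS and then WT and KO for papain, the order of every set of 4 values below, and at 96.6, 5.33, 89.6 and 17.6 CPM in regulatory T-like cells. Alveolar macrophage-like cells, outside the reach of CD4 cre, had 55.9 to 64.7 CPM. The KO labels thus matched the T-lineage levels, although a 3′ UMI does not measure the deletion itself.

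The common chain was present in every class and split the lymphoid from the myeloid cells. Il2rg had 36137 UMIs in all. Its mean CPM over the 4 libraries lay between 170.6 in dividing T-like and 357.8 in ILC2-like cells among lymphoid classes and between 22.4 in type 1 dendritic-like and 121.4 in nonclassical monocyte-like cells among myeloid classes. No lymphoid class overlapped a myeloid class, the lowest lymphoid library being dividing T-like cells of DPBS WT at 136 CPM and the highest myeloid library nonclassical monocyte-like cells of DPBS KO at 134 CPM. Within the lymphoid classes the ranges over the libraries ran into each other. Across groups Il2rg was the steadiest member. Its log2 ratios between 2 libraries of a comparison ran from -0.57 to 0.71 over all classes and comparisons, and no class passed 2-fold.

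**Figure D1:**
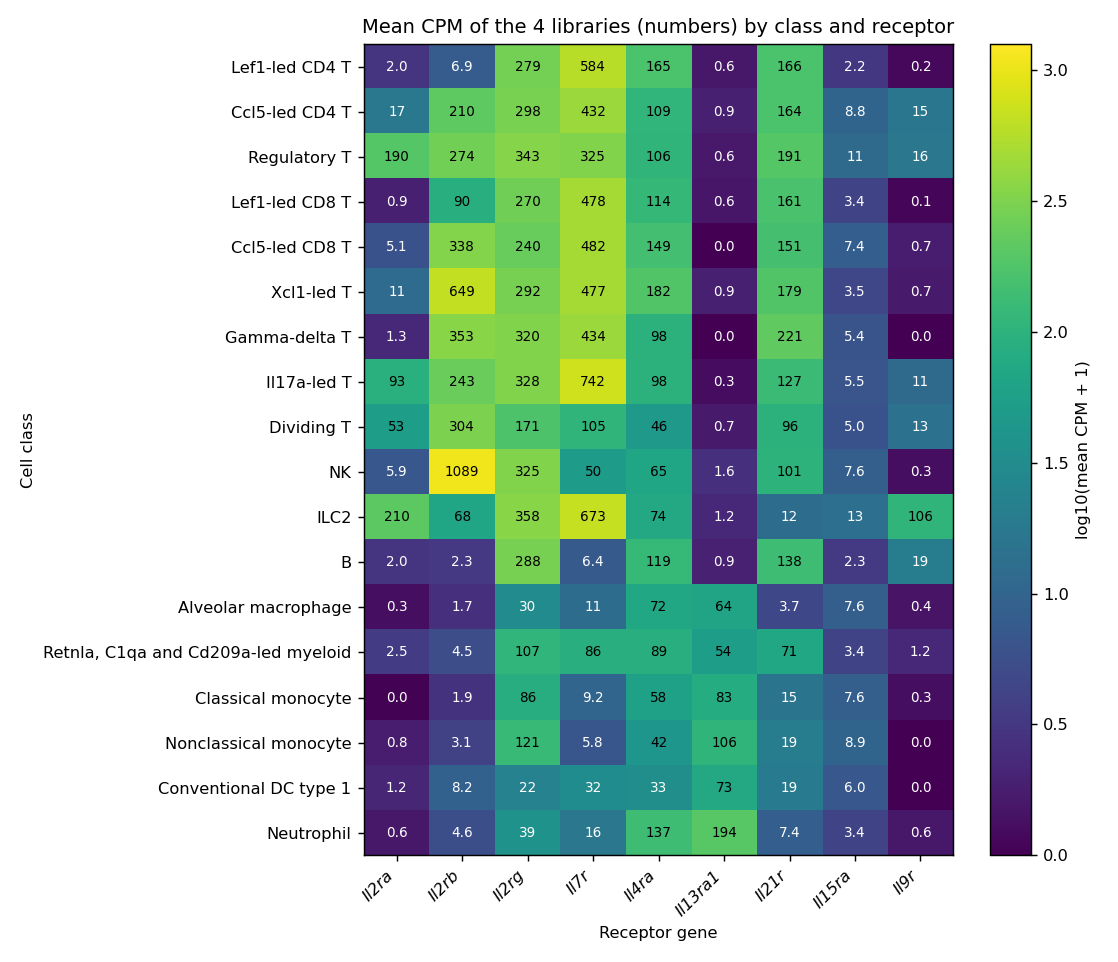
Mean CPM of the 4 libraries (the number in each field; the colour is log10(mean CPM + 1)) of the 9 receptor genes (columns) in the 18 compared cell classes (rows). Il2rg is high in the lymphoid rows, Il13ra1 in the myeloid rows, and Il2ra and Il9r stand out in ILC2-like cells.

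Among the IL-2 and IL-15 chains, Il2rb set the NK-like and Xcl1-led T-like cells apart, and Il2ra had its highest means in ILC2-like and regulatory T-like cells. Il2rb was at 981, 1132, 1214 and 1029 CPM in natural killer (NK)-like cells, at 629, 677, 690 and 598 CPM in T-like cells led by Xcl1, a chemokine gene of innate-like and CD8 T cells, and at 334, 406, 429 and 245 CPM in gamma-delta T-like cells. NK-like cells lay above Xcl1-led T-like cells, and those above gamma-delta T-like cells, with no overlap over the libraries. Gamma-delta T-like cells overlapped the next class, Ccl5-led CD8 T-like cells at 288 to 407 CPM. Lef1-led CD4 T-like cells had 4.08 to 10.3 CPM of Il2rb and Lef1-led CD8 T-like cells 73.5 to 125.9 CPM, so the 2 naive-like classes did not overlap.

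Il2ra was highest by the mean in ILC2-like cells, at 156, 243, 206 and 233 CPM, followed by regulatory T-like cells at 107, 115, 391 and 146 CPM. The third place was held by T-like cells led by Il17a, which encodes IL-17A, at 95.8, 119, 94.5 and 61.1 CPM. That class also held Foxp3, a regulatory T cell gene, at 47.9, 61.7, 52.4 and 38.9 CPM. B cell markers summed to 462, 391, 632 and 859 CPM in it, and the part of such cells in its levels was not tested. All neighbours in the order of Il2ra overlapped, since the regulatory T-like range spanned the ILC2-like one and reached down into the Il17a-led one. Lef1-led CD4 T-like cells were at 1.05 to 3.09 CPM and B-like cells at 1.30 to 2.75 CPM. Il15ra was low in every compared class, with means of 2.21 CPM in Lef1-led CD4 T-like to 12.7 CPM in ILC2-like cells and overlap between all neighbours. Those 12.7 CPM rested on 2, 4, 8 and 8 UMIs.

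Il7r, the chain for IL-7 and TSLP, marked nearly the whole T lineage and ILC2-like cells. It was at 705, 1029, 590 and 645 CPM in Il17a-led T-like cells, at 622, 679, 609 and 781 CPM in ILC2-like cells and at 510, 595, 580 and 650 CPM in Lef1-led CD4 T-like cells. The first 3 overlapped, and the Lef1-led CD4 class lay above the next one, Ccl5-led CD8 T-like cells at 440 to 503 CPM. Dividing T-like cells stood low for T cells, at 53.3, 144, 109 and 112 CPM, and B-like cells had 3.81 to 9.69 CPM.

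Of the IL-4 and IL-13 chains, Il4ra was measured in every class and Il13ra1 in the myeloid classes. The neighbours in the order of Il4ra all overlapped. It was highest by the mean in Xcl1-led T-like cells, at 131, 237, 188 and 171 CPM, then in Lef1-led CD4 T-like cells at 131, 207, 164 and 157 CPM. B-like cells had 108 to 124 CPM, neutrophil-like cells 102 to 170 CPM and alveolar macrophage-like cells 69.2 to 76.7 CPM. Il13ra1 in neutrophil-like cells was at 142, 183, 234 and 218 CPM, nonclassical monocyte-like cells 97.4 to 119.8 CPM, classical monocyte-like cells 76.1 to 88.9 CPM and alveolar macrophage-like cells 60.5 to 67.8 CPM. The first 3 of these were separated from each other over the libraries. The lymphoid class with the highest mean of Il13ra1, NK-like cells, had 1.64 CPM from 4 UMIs in all.

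Il21r, the IL-21 receptor, was read in T-like, NK-like and B-like cells and at a low level in ILC2-like cells. Gamma-delta T-like cells had 181, 317, 193 and 193 CPM, B-like cells 131, 152, 140 and 130 CPM, and ILC2-like cells 6.13, 20.3, 15.3 and 4.35 CPM from 2 to 9 UMIs per library. Among the compared myeloid classes the one led by Retnla, C1qa and Cd209a had the most, at 64.0 to 80.5 CPM. Il9r, the IL-9 receptor, was at 107, 132, 104 and 82.7 CPM in ILC2-like cells, above every other class, with B-like cells next at 21.3, 10.95, 26.0 and 19.2 CPM. By number of molecules the order turned, because B-like cells are many: they held 71.9%, 53.2%, 57.1% and 69.0% of the Il9r UMIs of the libraries.

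Chains of 1 receptor were next counted in the same cells, as the share of cells with at least 1 UMI of each. Such shares depend on depth and undercount cells with low transcripts. All 3 chains of the high-affinity IL-2 receptor (Il2ra, Il2rb, Il2rg) were found in 21.6%, 28.3%, 54.3% and 31.1% of regulatory T-like cells. Dividing T-like cells, which are the deepest T cells, had them in 17.7%, 12.9%, 40.7% and 27.9%, and ILC2-like cells in 8.57%, 7.84%, 16.7% and 18.8%. Papain WT was thus the highest library in the first 2 of these classes. NK-like cells had Il2rb with Il2rg in 75.9%, 80.3%, 65.5% and 76.9%, and ILC2-like cells Il7r with Il2rg in between 68.6% and 92.2% of the cells of a library. The pair of the type II IL-4 receptor, Il4ra with Il13ra1, was found in 45.2%, 46.5%, 37.1% and 51.7% of alveolar macrophage-like cells, whose median depths were 16285 to 19576 UMIs.

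**Figure D2:**
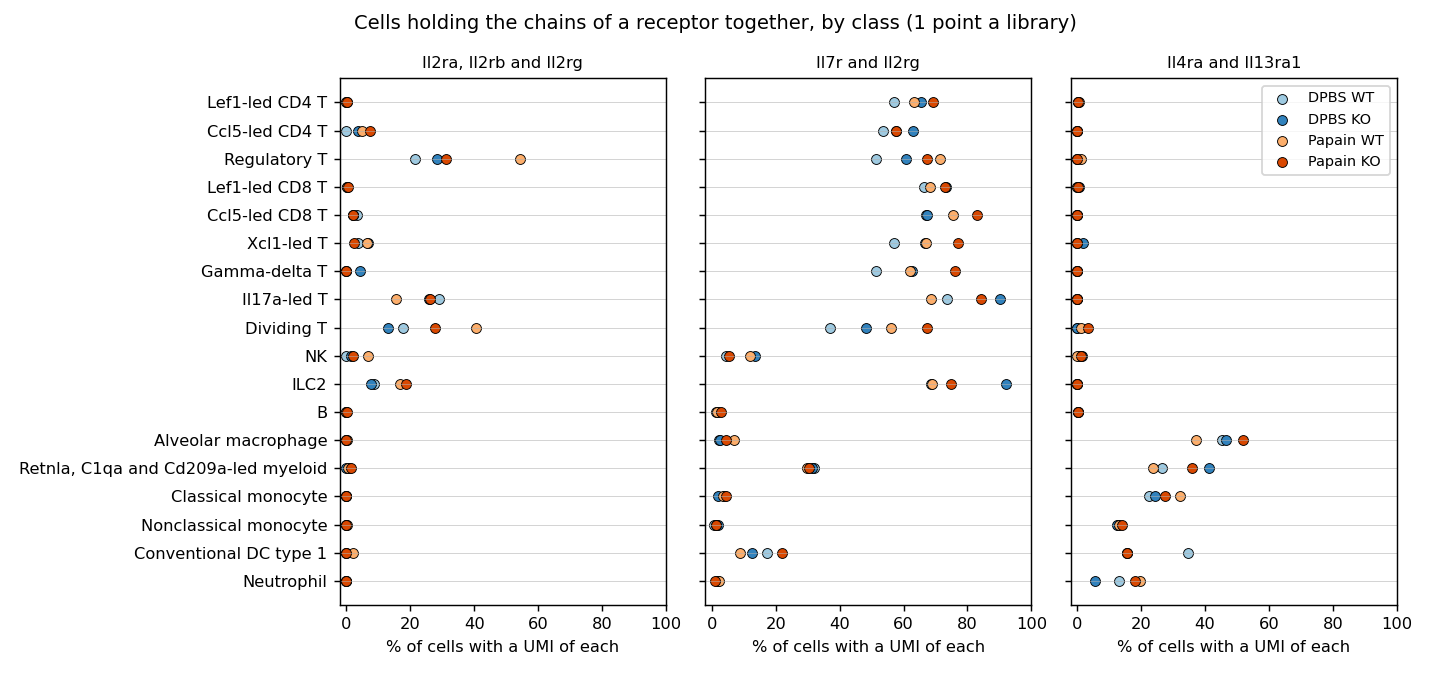
Share of cells (%, horizontal axis) with at least 1 UMI of each chain named above a panel, by class (rows), with 1 point for each library and no error drawn. The panel of Il2ra, Il2rb and Il2rg shows regulatory T-like cells of Papain WT at 54.3% against 21.6% to 31.1% in the other 3 libraries.

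The first comparison asked what papain did to these receptors in WT mice. Of the 162 pairs of a receptor and a class, 124 had at least 20 UMIs. In Papain WT against DPBS WT, 28 of the 124 were more than 2-fold higher and 2 more than 2-fold lower, and the counting interval left out no change in 23 and 2 of them. Over all genes and classes that entered, 5.83% were past 2-fold higher and 3.37% lower. The median log2 ratio of the members was 0.31, beside 0.03 for all genes, taken as the median of the class medians. Of the 28, 4 lay in regulatory T-like cells (Il2ra, Il4ra, Il21r, Il15ra), 3 in dividing T-like cells (Il2ra, Il7r, Il9r) and 5 in alveolar macrophage-like cells (Il7r, Il21r, Il2ra, Il2rb, Il9r). Over all genes that entered in these classes, 722 of 7969, 710 of 9860 and 638 of 12653 were past 2-fold higher, in the same order.

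Regulatory T-like cells had 4 members past 2-fold after papain. Il2ra had 60, 43, 476 and 75 UMIs, which are 107 CPM (81.9 to 138), 115 CPM (83.0 to 155), 391 CPM (357 to 428) and 146 CPM (115 to 184). Papain WT lay far above the others, whose intervals overlapped one another. The log2 ratio of Papain WT to DPBS WT was 1.87 (1.48 to 2.28). Il21r was at 85.8, 203, 269 and 205 CPM, with a ratio of 1.65 (1.21 to 2.12), and here DPBS WT was the library that stood apart, on the low side. Il4ra was at 60.8, 123, 168 and 70.3 CPM and had a ratio of 1.47 (0.94 to 2.04). Il15ra rested on 2 UMIs in DPBS WT and 22 in Papain WT. Il2rb, at 211, 235, 387 and 262 CPM, and Il7r, at 240, 288, 415 and 356 CPM, were also highest in Papain WT but under 2-fold. When regulatory T-like cells were taken by a gate on their transcripts instead of by cluster, Il4ra was at 0.51 for this comparison.

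The share of regulatory T-like cells with an Il2ra UMI was 41.9%, 41.3%, 69.5% and 44.3%, at median depths of 6136.5 to 7157 UMIs per cell. Thinned to 1000 UMIs per cell, it was 5.41%, 2.17%, 28.7% and 9.84%. B-like cells, as a class with little of this gene, had 0.144% to 0.288% after the same thinning and 0.539% to 1.39% before it, at median depths of 3883 to 4779 UMIs. Papain WT was highest on both scales.

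The regulatory T-like class itself was not the same in the 4 libraries. It held 74, 46, 151 and 61 cells. Foxp3, its master transcription factor, was at 231, 213, 399 and 287 CPM, and Il1rl1, which encodes the IL-33 receptor found on activated tissue regulatory T cells, was at 50.1, 42.7, 317 and 102 CPM. Their part in the Il2ra difference was examined by splitting the cells, a split made after the values were seen. Among the 49, 24, 122 and 46 cells with a Foxp3 UMI, Il2ra was at 94.1, 194, 428 and 174 CPM, and the ratio of Papain WT to DPBS WT was 2.19 (1.69 to 2.73). In the 25, 22, 29 and 15 cells without one Il2ra was at 134, 32.6, 200 and 58.3 CPM, for a ratio of 0.58 (-0.18 to 1.37), under 2-fold and with an interval that held no change. Cells with an Il1rl1 UMI, 17, 5, 83 and 15 in number, had 123, 122, 492 and 182 CPM of Il2ra. In the 57, 41, 68 and 46 cells without an Il1rl1 UMI it was at 102, 113, 212 and 131 CPM, for a ratio of 1.06 (0.52 to 1.62). Papain WT was the highest library in each of these 4 sets of cells, and the ratio was smaller in the cells without either UMI than in those with it.

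**Figure D3:**
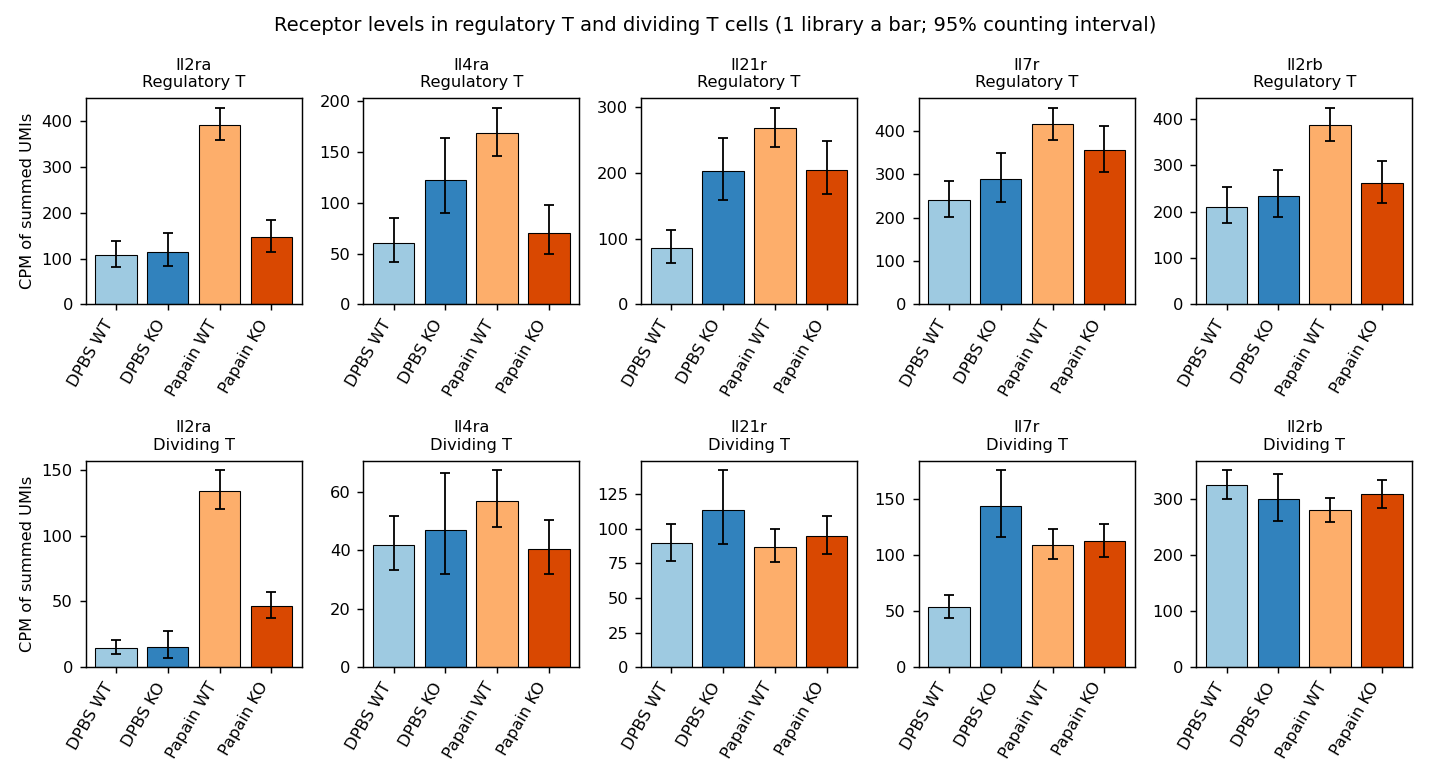
CPM of Il2ra, Il4ra, Il21r, Il7r and Il2rb by library in regulatory T-like (upper row) and dividing T-like cells (lower row), with 95% exact Poisson intervals for counting error. Il2ra in regulatory T-like cells of Papain WT stands at 391 CPM, and the other 3 libraries lie between 107 and 146 CPM.

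Dividing T-like cells had the largest log2 ratio of the comparison, that of Il2ra. Its 29, 10, 325 and 91 UMIs are 14.4, 15.1, 134 and 46.4 CPM, and the log2 ratio of Papain WT to DPBS WT was 3.22 (2.67 to 3.82). Both papain libraries lay above both DPBS libraries. Il9r was at 6.47, 18.1, 19.8 and 9.18 CPM with a ratio of 1.61 (0.71 to 2.62), and DPBS KO was as high as Papain WT. Il7r was at 53.3 CPM in DPBS WT and 109 CPM in Papain WT (1.03, 0.70 to 1.37), with both KO libraries at or above Papain WT. The class holds regulatory T cells as well, since Foxp3 was at 11.4, 37.8, 86.3 and 30.6 CPM. Markers of other cells were also read in it. NK markers summed to 715, 1427, 397 and 985 CPM. B cell markers summed to 204, 131, 577 and 610 CPM and plasma cell markers to 1268, 77.1, 158 and 1208 CPM. Their part in the ratios of this class was not tested. In its 8, 7, 34 and 9 cells with a Foxp3 UMI, Il2ra was at 88.2, 52.3, 306 and 206 CPM, and in the 54, 24, 57 and 52 cells without one at 6.61, 2.04, 33.4 and 18.0 CPM. The order of papain over DPBS held in both. Il9r split the other way. With a Foxp3 UMI it was at 41.5, 23.2, 16.7 and 16.9 CPM, for a ratio of Papain WT to DPBS WT of -1.31 (-2.64 to 0.13), and without one at 2.75, 16.3, 21.6 and 7.81 CPM, for 2.97 (1.61 to 4.69).

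Alveolar macrophage-like cells had the largest ratio of Il7r. It had 79, 112, 379 and 177 UMIs, or 2.83 (2.24 to 3.53), 4.72 (3.89 to 5.68), 21.7 (19.6 to 24.0) and 16.1 CPM (13.8 to 18.6). Both papain libraries were above both DPBS libraries, and the log2 ratio of papain to DPBS was 2.94 (2.58 to 3.31) for WT, 1.77 (1.42 to 2.12) for KO. The level stayed under that of every T cell class. Within the class the cluster led by the stress genes Gdf15 and Hmox1 was at 3.30, 4.41, 29.8 and 23.8 CPM of Il7r. The cluster led by Car4, a gene of resident alveolar macrophages, had 2.55, 4.401, 5.44 and 8.73 CPM.

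Markers of other cells moved in the same class. The 5 markers of interstitial macrophages, none at 0, summed to 55.2, 42.0, 486 and 170 CPM in it, and their part in the Il7r difference was not tested. The myeloid-like class led by Retnla, C1qa and Cd209a, genes of interstitial macrophages and dendritic cells, had 73.0 to 98.4 CPM of Il7r. In clusters made without integration, an interstitial macrophage-like cluster of 73, 117, 556 and 115 cells stood apart from the alveolar macrophage-like cells. The 5 T cell markers, none at 0, summed to 28.2, 23.1, 41.5 and 39.1 CPM in alveolar macrophage-like cells. Il7r UMIs per 100 T marker UMIs were 10.1, 20.4, 52.3 and 41.1 there and 10.9, 13.7, 14.6 and 15.3 in Lef1-led CD4 T-like cells. In the 1088, 965, 826 and 400 alveolar macrophage-like cells with no T marker UMI, Il7r was at 1.22, 2.10, 18.5 and 8.10 CPM, and papain to DPBS gave 3.92 (3.32 to 4.57) for WT, 1.95 (1.34 to 2.57) for KO. Cells with a T marker UMI gave 2.08 (1.62 to 2.56) for WT and 1.52 (1.09 to 1.96) for KO. For Papain KO against Papain WT the cells without a T marker UMI were at -1.19 (-1.62 to -0.79) and those with one at 0.22 (-0.15 to 0.58). The share of alveolar macrophage-like cells with an Il7r UMI was 3.63%, 4.85%, 13.1% and 9.44%, and thinned to 1000 UMIs 0.207%, 0.402%, 2.07% and 0.911%, beside 0.362% to 0.805% in B-like cells. On the thinned scale both DPBS libraries thus lay within or under the level of B-like cells. A single cell held up to 27 of the UMIs of Papain WT and up to 31 of those of Papain KO. The Papain WT ratio was 1.53 with gated classes, 1.54 with doublets kept and 0.88 with clusters made without integration. The last of these was under 2-fold. In that setting the alveolar macrophage-like clusters held 425, 174 and 57 cells of Papain WT, beside 1085 in the class reported. For DPBS WT they held 690, 579 and 165 cells, beside 1459. The size of the ratio, and not its direction, thus changed with the setting, and why was not tested.

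**Figure D4:**
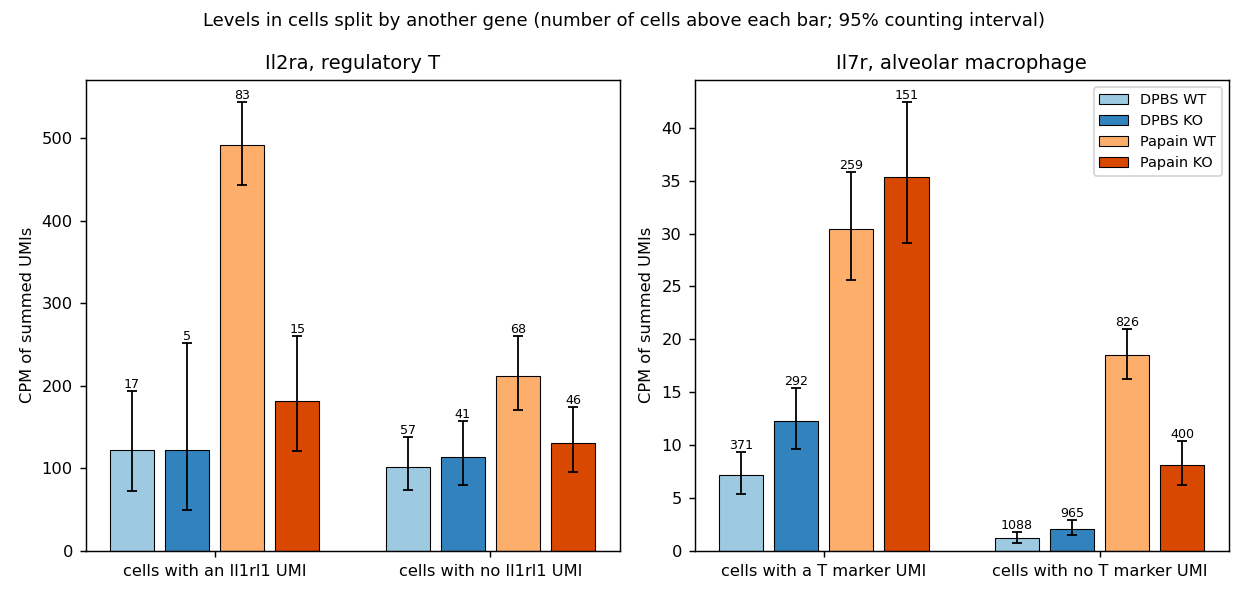
CPM of Il2ra in regulatory T-like cells with and without an Il1rl1 UMI (left) and of Il7r in alveolar macrophage-like cells with and without a T cell marker UMI (right), by library, with 95% exact Poisson intervals and the number of cells above each bar. In cells with no T marker UMI, Il7r was at 18.5 CPM in Papain WT and 1.22 CPM in DPBS WT.

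The other members past 2-fold in alveolar macrophage-like cells stayed at or under 5.95 CPM. Il21r was at 2.62, 1.98, 5.95 and 4.36 CPM, and its ratio was 1.19 (0.74 to 1.64) for WT, 1.14 (0.53 to 1.75) for KO. Il2ra, Il2rb and Il9r rested on 14, 47 and 22 UMIs in Papain WT. The receptor pair that reads IL-4 and IL-13 in these cells was level, with Il4ra at 72.0, 69.2, 69.6 and 76.7 CPM and Il13ra1 at 60.5, 64.9, 63.1 and 67.8 CPM.

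NK-like cells had opposite ratios of Il7r in the genotypes. The gene had 25, 18, 37 and 7 UMIs in 8, 12, 9 and 5 cells, or 29.4, 43.3, 117 and 12.5 CPM. A single cell held up to 11, 3, 10 and 3 of these UMIs, a spread that the counting intervals do not cover. Papain to DPBS gave 1.99 (1.22 to 2.78) in WT and -1.796 (-3.30 to -0.47) in KO. T markers summed to 347, 751, 744 and 531 CPM in this class, with Cd3e, a T cell receptor subunit, at 4.70, 36.1, 66.2 and 19.6 CPM. Of the cells with an Il7r UMI, 6 of 8, 10 of 12, 9 of 9 and 5 of 5 also had a T marker UMI, as did 58.0%, 64.8%, 59.2% and 62.8% of the cells without an Il7r UMI, and their part in the difference was not tested. Il21r in NK-like cells was at 56.4, 69.8, 145 and 132 CPM. It was higher after papain in both genotypes, past 2-fold in WT at 1.36 (0.75 to 1.98).

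ILC2-like cells, whose Ift20 level was 58.3 to 78.4 CPM in the 4 libraries, had high levels and few differences. Il2rb was past 2-fold in WT, at 52.1 CPM in DPBS WT and 107 CPM in Papain WT (1.04, 0.25 to 1.91), beside 43.9 and 69.7 CPM in the KO libraries. Il15ra was past it from 2 and 8 UMIs, and Il2ra, Il7r, Il2rg, Il9r and Il4ra were under 2-fold in this comparison. Il4ra in type 1 dendritic-like cells was among the 2 pairs that were lower, at 52.6, 44.1, 25.3 and 9.87 CPM, with a ratio of -1.06 (-1.99 to -0.13). The other was Il21r in the same class, from 12 to 8 UMIs.

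The second comparison asked the same of the KO mice, which share no library with the first. In Papain KO against DPBS KO, 15 of the 124 pairs were past 2-fold higher and 4 lower, 6 and 3 of them with an interval that left out no change. Over all genes 6.76% were higher and 4.2% lower, and the median log2 ratio of the members was 0.00 beside 0.02 for all genes. Il2ra in regulatory T-like cells, at 115 and 146 CPM, was under 2-fold, as were Il4ra and Il21r there. In dividing T-like cells Il2ra was past 2-fold, at 15.1 and 46.4 CPM (1.62, 0.67 to 2.73). The other called pairs with an interval that left out no change included Il7r and Il21r in alveolar macrophage-like cells and Il7r in classical monocyte-like cells (1.504, 0.68 to 2.39). Il4ra in type 1 dendritic-like cells was lower here too, at -2.16 (-3.61 to -0.91) from 25 and 7 UMIs.

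**Figure D5:**
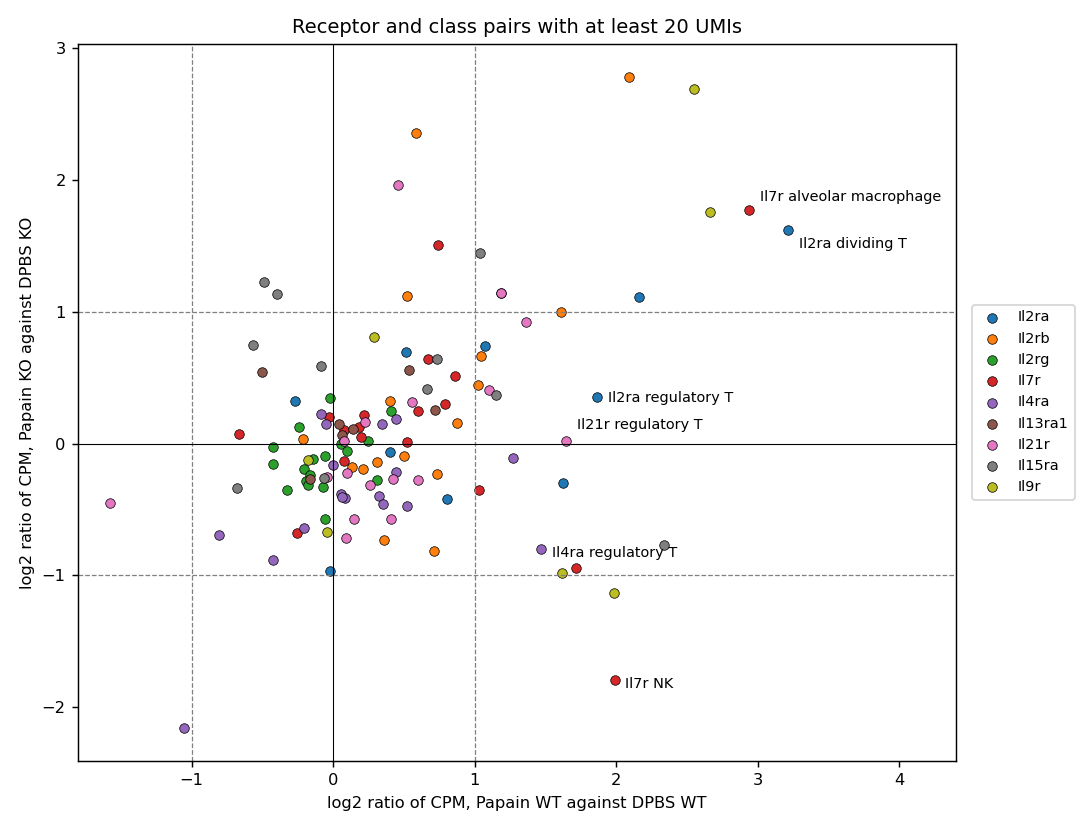
Log2 ratio of CPM, papain over DPBS, in WT (horizontal) and KO (vertical) for 123 receptor and class pairs, with lines at 2-fold. Il2ra in dividing T-like cells lies at 3.22 in WT and 1.62 in KO, Il7r in alveolar macrophage-like cells at 2.94 and 1.77, and Il7r in NK-like cells at 1.99 and -1.796.

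The third comparison set the genotypes side by side after papain, and it shares its libraries with both comparisons above. In Papain KO against Papain WT, 2 of the 124 pairs were past 2-fold higher and 17 lower, 1 and 12 of them with an interval that left out no change. Over all genes 3.09% were higher and 4.82% lower, and the median log2 ratio of the members was -0.14 beside -0.03 for all genes. Il2ra was lower in KO in regulatory T-like cells, at -1.42 (-1.79 to -1.06), and in dividing T-like cells, at -1.53 (-1.88 to -1.19). Il4ra in regulatory T-like cells was at -1.26 (-1.81 to -0.74). Il2rb in Lef1-led CD4 T-like cells, at 10.3 and 4.08 CPM from 60 and 21 UMIs, was at -1.34 (-2.13 to -0.60), and Il9r in dividing T-like cells at -1.11 (-1.98 to -0.30).

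The cells behind the Il2ra ratios differed here as well. Regulatory T-like cells with a Foxp3 UMI gave -1.30 and those without one -1.78 (-3.18 to -0.60). Those with an Il1rl1 UMI gave -1.44 and those without one -0.70. Dividing T-like cells with a Foxp3 UMI gave -0.57 and those without one -0.89, both under 2-fold. For Il9r in dividing T-like cells the values were 0.01 with a Foxp3 UMI and -1.47 without one. With gated classes the regulatory T-like ratios were -0.82 for Il2ra and -0.68 for Il4ra, so the 2-fold call for KO against WT in that class depended on how the cells were taken. Regulatory T-like cells held 38.3% of all Il2ra UMIs of Papain WT and 18.1% of those of Papain KO, and ILC2-like cells 9.73% and 25.8%.

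The fourth comparison, DPBS KO against DPBS WT, showed the receptors without allergen. Of the 124 pairs, 9 were past 2-fold higher and 10 lower, 5 and 1 of them with an interval that left out no change. Over all genes 4.86% were higher and 6.95% lower, and the median log2 ratio of the members was 0.15 beside -0.02 for all genes. Il21r and Il4ra in regulatory T-like cells were higher in KO, at 1.24 (0.70 to 1.79) and 1.013 (0.34 to 1.70), the second at 0.39 with gated classes. Il7r in dividing T-like cells was at 1.43 (1.02 to 1.84). The same direction, under 2-fold, was seen in Lef1-led CD4 T-like cells, with Il4ra at 131 and 207 CPM and Il21r at 128 and 219 CPM. DPBS WT was the lowest of the 4 libraries in 50 of the 124 pairs and Papain WT the highest in 52. This count was not made over all genes, so it cannot be told whether it is particular to the receptors. For these pairs, ratios to DPBS WT thus draw on a library that was often the low one.

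Ligands of the family were scarce, and most of their pairs with classes did not enter. In Papain WT against DPBS WT, 8 of the 26 pairs that entered, from 5 genes, were past 2-fold higher and none lower. Over all genes 5.83% were higher and 3.37% lower. In Papain KO against Papain WT, 3 of the 26 were higher and 6 lower, beside 3.09% and 4.82% over all genes. Il13, a ligand of the Il4ra and Il13ra1 pair, was at 442 CPM in ILC2-like cells of Papain WT and 220 CPM in those of Papain KO (-1.01, -1.35 to -0.67). The content of this class differed as well. Basophil markers summed to 236, 20.3, 3.41 and 845 CPM in it, and their part in the Il13 difference was not tested. Among Ccl5-led CD4 T-like cells, Il13 had 0, 0, 109 and 0 UMIs and Il4 had 3, 0, 92 and 0 UMIs, so that Papain WT held nearly all of them. Il2 was read mainly in Ccl5-led CD4 T-like cells (mean 55.6 CPM) and ILC2-like cells (46.8 CPM), and Il15 in neutrophil-like cells (96.1 CPM).

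Signalling genes downstream were mostly level. Of 160 pairs of a kinase or STAT gene and a class, 11 were past 2-fold higher and 1 lower in Papain WT against DPBS WT, and 0 higher and 6 lower in Papain KO against Papain WT. The first were 6.88% and 0.625% of the pairs, beside 5.83% and 3.37% over all genes. The second were 0% and 3.75%, beside 3.09% and 4.82%. Stat3, which carries the IL-21 signal, was at 113 and 264 CPM in regulatory T-like cells of DPBS WT and Papain WT (1.23), and Crlf2, the partner of IL-7Rα for TSLP, at 76.9 and 159 CPM there (1.05), the only 1 of 18 Crlf2 pairs past 2-fold.

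Genes known as targets of STAT5 gave 20 pairs higher and 2 lower of 114 in Papain WT against DPBS WT, and 3 higher and 10 lower in Papain KO against Papain WT. The first were 17.5% and 1.75% of the pairs, beside 5.83% and 3.37% over all genes. The second were 2.63% and 8.77%, beside 3.09% and 4.82%. Cish, a feedback inhibitor induced through STAT5, was at 105 and 216 CPM in regulatory T-like cells (1.03, 0.62 to 1.47). It was at 17.6, 62.1, 160 and 65.3 CPM in Ccl5-led CD4 T-like cells. Socs3, another feedback inhibitor, was at 49.6, 162, 172 and 175 CPM in Lef1-led CD4 T-like cells, where DPBS WT stood apart on the low side and KO and WT papain libraries were alike within counting error.

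Genes known as targets of STAT6 were a list of 4, chosen with earlier results of these data known, so their shares do not rank the pathways. In Papain WT against DPBS WT 17 of 21 pairs, from 4 genes, were past 2-fold higher and 0 lower, with a median log2 ratio of 2.04. In Papain KO against DPBS KO 5 were higher and 7 lower, with a median of -0.38, and in Papain KO against Papain WT 1 was higher and 14 lower, with a median of -1.73. Without allergen, in DPBS KO against DPBS WT, 10 were higher and 2 lower, with a median of 0.92, so DPBS WT was already low for this list. Over all genes the higher and lower shares of these 4 comparisons were, in order, 5.83% and 3.37%, 6.76% and 4.2%, 3.09% and 4.82%, and 4.86% and 6.95%. The 21 pairs repeat the same 4 genes over classes. In alveolar macrophage-like cells Ccl17, a chemokine gene of type 2 activation, was at 1.36, 10.1, 203 and 8.81 CPM, and Retnla, another such gene, at 0.79, 1.85, 35.1 and 0.82 CPM. Papain WT was alone at the high end for both, while Il4ra and Il13ra1 in the same cells were level over the 4 libraries. Both genes are also among those that lead the C1qa and Cd209a class. Beside them in the alveolar macrophage-like cells stood interstitial macrophage markers at 55.2, 42.0, 486 and 170 CPM and type 2 dendritic cell markers at 1.68, 0.93, 7.61 and 1.45 CPM, whose part in these values was not tested.

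The genes most like each member across the 18 classes were named by the Pearson correlation of log2(mean CPM + 10) among 10552 genes, as a description, since the classes share their libraries. Il2ra was followed most closely by Neu3 (r = 0.97) and Rln3 (0.95), Il2rb by the cytotoxic cell genes Cst7 (0.96) and Nkg7 (0.94), and Il2rg by Rasgrp1 (0.95) and Ldb1 (0.93). For Il7r they were the T cell transcription factor gene Bcl11b (0.96) and Klk8 (0.96), for Il21r the lymphocyte egress receptor gene S1pr1 (0.95) and Plcxd2 (0.94), and for Il13ra1 Cask (0.99) and the leukotriene pathway gene Alox5ap (0.99). Il9r had Ptpn13 (0.91) and Tktl1 (0.90). Il4ra and Il15ra, the members with the flattest profiles, had no gene as close, at 0.82 for Tcp11l2 and 0.76 for Itgav.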

How the data were processed

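Raw UMI counts per gene and cell barcode of 4 libraries, 1 per group, were used as the authors deposited them; the submitters' processing notes name Cell Ranger and mm10, and the file headers give software version 3.1.0. The files held 8552, 5946, 8444 and 5863 barcodes and 75675956, 56430211, 74536080 and 53854420 UMIs for DPBS WT and KO, then papain WT and KO. How many mice a library holds is not given in the sources used here. Barcodes with over 200 genes and under 15% mitochondrial UMIs were kept. Doublets were scored with Scrublet (scanpy 1.11.5, Python 3.11.15), and the top 0.8% per 1000 barcodes of each library were removed (557, 271, 540 and 267 barcodes). Libraries were integrated and clustered in Seurat 5.3.0 (R 4.3.3; 2000 variable genes without the receptors and pathway genes, 30 dimensions, resolution 0.8). The 25909 cells formed 25 clusters, and 8698 cells of clusters rich in Cd3e were clustered again into 13.

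Clusters were named from marker lists. The rule that scored them and the naming of T clusters by leading genes were set after clusters had been seen, so a difference from the study's own cell types may come from the names. Mature dendritic-like, plasma-like and unnamed cells were not compared.

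CPM was computed from UMIs summed per class and library. A pair of a receptor and a class entered with 20 UMIs over the 4 libraries and 20 cells in each, and was called past 2-fold. Intervals are 95% exact Poisson for CPM, exact conditional binomial for ratios and exact binomial (Clopper-Pearson) for shares, for counting error only. No test between groups was run, as each group is 1 library. Ratios were recomputed with TMM factors (edgeR 4.0.16), means over cells, stricter cell filters, doublets kept, no integration, classes gated on marker UMIs, a 50-UMI minimum and without the cell with the most UMIs; the scripts were tested on simulated data. The members and gene lists were chosen with earlier results of these data known. Named are all members, and of the pathway lists the genes past 2-fold with an interval that left out no change in T-lineage, ILC2-like or alveolar macrophage-like cells or with the most UMIs, of which examples are given. The splits by Foxp3, Il1rl1 and T marker UMIs were chosen after values were seen.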

Additional observations from a re-analysis of the deposited data

Results flagged for a closer look

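Il7r in NK-like cells moved in opposite directions with papain, with a log2 ratio of 1.99 in WT and -1.796 in KO, each from 1 library pair. The difference between the genotypes was not tested, and the counts were 25 and 37 UMIs in WT and 18 and 7 UMIs in KO. A single cell held up to 11 and 10 of the WT UMIs and up to 3 and 3 of the KO UMIs. Il9r in Ccl5-led CD4 T-like cells likewise had a log2 ratio of 1.98 in WT and -1.13 in KO, from 2 and 30 UMIs in WT and 4 and 3 UMIs in KO, and this difference was not tested either.

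Il15ra had its highest level in a class outside the comparisons. Mature dendritic-like cells had 67.4, 120.4, 28.7 and 117 CPM (WT and KO after DPBS, then WT and KO after papain), a mean of 83.4 CPM, from 16 to 19 UMIs per library in 10 to 50 cells. The compared class with the highest mean had 12.7 CPM.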

How the results depend on the processing

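With 1 library per group, no ratio has a spread between mice beside it, and low members (Il15ra, and Il2ra, Il2rb and Il9r in myeloid classes) rest on a few UMIs. No paired analysis was possible because each group holds 1 library. Of the 52 named ratios, recomputed to give 376 values, 347 moved by less than their counting interval, 25 moved further and 4 reversed; 56 values, of 34 ratios, were under 2-fold. The number of pairs past 2-fold in Papain WT against DPBS WT was 30 in the analysis reported, 19 with gated classes, 17 without integration and 18 with a minimum of 50 UMIs. It was 19 and 8 (50 UMIs) in Papain KO against DPBS KO, 19, 8 (gated) and 10 (50 UMIs) in Papain KO against Papain WT, and 19 and 6 (50 UMIs) in DPBS KO against DPBS WT. There the split was 9 higher and 10 lower, but 9 and 7 as means over cells and 5 and 1 with 50 UMIs. In Papain KO against DPBS KO it was 15 and 4, but 8 and 6 with gated classes and 10 and 6 with doublets kept. Gating, no integration and the 50-UMI minimum changed which classes or pairs entered, so these counts do not share a base. Shares over all genes were not computed for the alternatives. The 4 reversed log2 ratios were Il2rb in classical monocyte-like cells with doublets kept (-0.23, Papain WT against DPBS WT), Il2rb in nonclassical monocyte-like cells with gated classes (-0.38, Papain WT against DPBS WT, and 0.13, Papain KO against Papain WT) and Il7r in neutrophil-like cells with doublets kept (0.23, Papain KO against Papain WT). The cause was not tested. Il2ra in regulatory T-like cells lay between 1.64 and 2.003 for Papain WT against DPBS WT over the 7 alternatives that gave this ratio. Clusters made without integration were not among them. There the regulatory T-like cluster had 14 cells in DPBS KO, under the minimum for a comparison, so this ratio was not checked in that setting. The class with the highest mean changed for Il4ra and Il7r with gated classes (Lef1-led CD4 T-like and ILC2-like), for Il4ra and Il21r without integration (both Lef1-led CD4 T-like) and for Il15ra without its top cell (nonclassical monocyte-like). The gate named no Xcl1-led or Il17a-led T-like cells, and without integration no Xcl1-led or gamma-delta T-like cluster was named. Regulatory T-like cells, next after gamma-delta T-like cells for Il21r in the analysis reported, were not compared without integration either. The changes with the gate and without integration were thus fixed by the classes present and do not bear on the receptor levels.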

Other observations

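Mature dendritic-like cells held other members of the family too. In their 20, 12, 50 and 10 cells (WT and KO after DPBS, then WT and KO after papain), Il2ra was at 67.4, 150, 45.2 and 78.1 CPM, Il7r at 173, 278, 259 and 274 CPM, Il21r at 211, 233, 190 and 215 CPM and Il4ra at 96.9, 233, 163 and 150 CPM. The myeloid-like class led by Retnla, C1qa and Cd209a had 73.0 to 98.4 CPM of Il7r and 64.0 to 80.5 CPM of Il21r, where classical monocyte-like cells had 4.85 to 13.7 and 10.1 to 21.6 CPM.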
